A study of Mus musculus with 8 samples.

Results

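Glucose enters a cell through facilitative transporters and is committed to glycolysis by the steps from hexokinase to triose phosphate isomerase, and the transcripts of 10 mouse genes for these steps were read in single myocardial cells. The genes were the transporters Slc2a1 and Slc2a3, the hexokinases Hk1 and Hk2, glucose phosphate isomerase Gpi1, the phosphofructokinases Pfkl, Pfkm and Pfkp, aldolase Aldoa and triose phosphate isomerase Tpi1. They were found by their symbol on the array, which gave 16 of the 55681 probes: 6 genes had 1 probe each, Hk1 and Gpi1 had 3 each, and Pfkp and Tpi1 had 2 each. All 10 genes were read, and each of the 16 probes was well above background in at least 1 cell.

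The cells came from mouse embryos at embryonic day 8.5 with 9 somites. The study asked whether loss of Sox17, a transcription factor gene of endoderm and endothelial precursors, alters the transcripts of myocardial cells. Both genotypes carried floxed Sox17 on both chromosomes (Sox17flox/flox), and they differed at Mesp1. WT cells were Mesp1+/+, without Cre, and KO cells were Mesp1Cre/+, in which Cre driven by the Mesp1 locus in early mesoderm deletes floxed Sox17 and takes the place of 1 Mesp1 allele. There were 4 WT and 4 KO cells, each amplified and hybridised to its own 1-colour Agilent array. The labels name the heart tube as the tissue and the methods name the ventricle, and per the methods the cell type of each cDNA was assigned by PCR of marker genes.

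The labels name no embryo or litter for any cell. Each genotype is therefore 1 sample of cells, no test between genotypes was made, and each SD below is the spread between 4 cells and not the error of a genotype mean. Since each genotype was hybridised on a slide of its own, slide and genotype cannot be told apart. Per cell, 19.6% to 26.0% of probes (WT) and 17.1% to 24.3% (KO) were well above background. Every cell held all 10 myocardial markers. Endothelial markers numbered 2 to 5 of 13 in a WT cell and 2 to 4 in a KO cell, with summed signals of 1124.5 to 4904.5 and 1048.2 to 2479.4, and Cdh5, Tek, Emcn, Cldn5, Sox18 and Nfatc1 were detected in 0 of 8 cells. Of 7 erythroid markers 0 were detected in WT and at most 1 in KO cells, with every summed signal at the floor, and of the endoderm, proepicardial and neural crest markers at most 1 per list was detected in a cell. Among these lists, KO cells reached a summed signal of 4539.5 for the 4 neural crest markers, where WT cells were all at the floor, and WT cells reached 674.1 for the 5 proepicardial markers. The part of these transcripts in the results was not tested. Both probes for Sox17 were detected in 0 of 8 cells, so that these arrays do not check the deletion.

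Glycolysis is the main source of ATP in the early heart, before mitochondrial oxidation takes over during maturation. Glucose enters through GLUT1 (Slc2a1) and the high-affinity GLUT3 (Slc2a3), and hexokinase traps it as glucose 6-phosphate. Isomerase converts this to fructose 6-phosphate, phosphofructokinase commits it to glycolysis, aldolase splits the resulting bisphosphate, and triose phosphate isomerase interconverts the products. Phosphofructokinase works as a tetramer of liver (Pfkl), muscle (Pfkm) and platelet (Pfkp) type subunits.

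What each probe can tell depends on its sequence, and for several of these genes the probes did not read alike. The 3 Gpi1 probes are near copies of each other. They overlap by 55 to 56 of 60 bases, and 1 lies on chromosome 8 although the gene is on chromosome 7. The same 30-base stretch of each is shown, 5′ to 3′, in capitals where they differ, with the differences counted from 1 at the start of the stretch as C8T and G15T against the first.
Gpi1 at chr7:34987178-34987237, minus strand: tgttgttCtgacctGtatttcacaccccag
Gpi1 at chr7:34987173-34987232, minus strand: tgttgttTtgacctgtatttcacaccccag
Gpi1 at chr8:5641211-5641270, plus strand: tgttgttctgacctTtatttcacaccccag
Each overlap with the first probe held 1 mismatch in all. These 3 probes cannot be read as independent measurements, and it is uncertain from which copy the signal on chromosome 8 comes.

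The Hk1 and Pfkp probes are shown for the opposite reason, since probes under the same symbol went different ways. The Hk1 symbol covers a pair of probes on chromosome 10, where the gene lies, and a probe placed on chromosome 5. For Pfkp, 1 probe lies on chromosome 13, where the gene lies, and the other has no position in mm9 in the deposited files. Sequences are 5′ to 3′, with the first 30 of 60 bases for probes shown in part and all 60 for the rest, and no base is in capitals because nothing in them is singled out.
Hk1 at chr10:61731856-61731915, minus strand, first 30 bases: ggaatctcccatcgctttagtgagccattg
Hk1 at chr10:61732717-61732776, minus strand, whole: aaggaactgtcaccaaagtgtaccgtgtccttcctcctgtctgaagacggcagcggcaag
Hk1 symbol at chr5:22118404-22118463, minus strand, first 30 bases: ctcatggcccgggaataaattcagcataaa
Pfkp at chr13:6579124-6579183, minus strand, first 30 bases: cttcatggtctcagaatttccttcagagtt
Pfkp unplaced, whole: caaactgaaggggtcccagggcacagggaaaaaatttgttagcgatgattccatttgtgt

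Probes for the 2 genes with the largest differences between genotypes are shown next, with the first 30 of their 60 bases. The Slc2a3 probe was printed once on each array and the Pfkm probe in 10 spots.
Slc2a3 at chr6:122678075-122678134, minus strand: gtgcttacacatttcagaccctttaggcaa
Pfkm at chr15:97962713-97962772, plus strand: acaggctgggtctctctagtgctacggcta

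**Figure D1:**
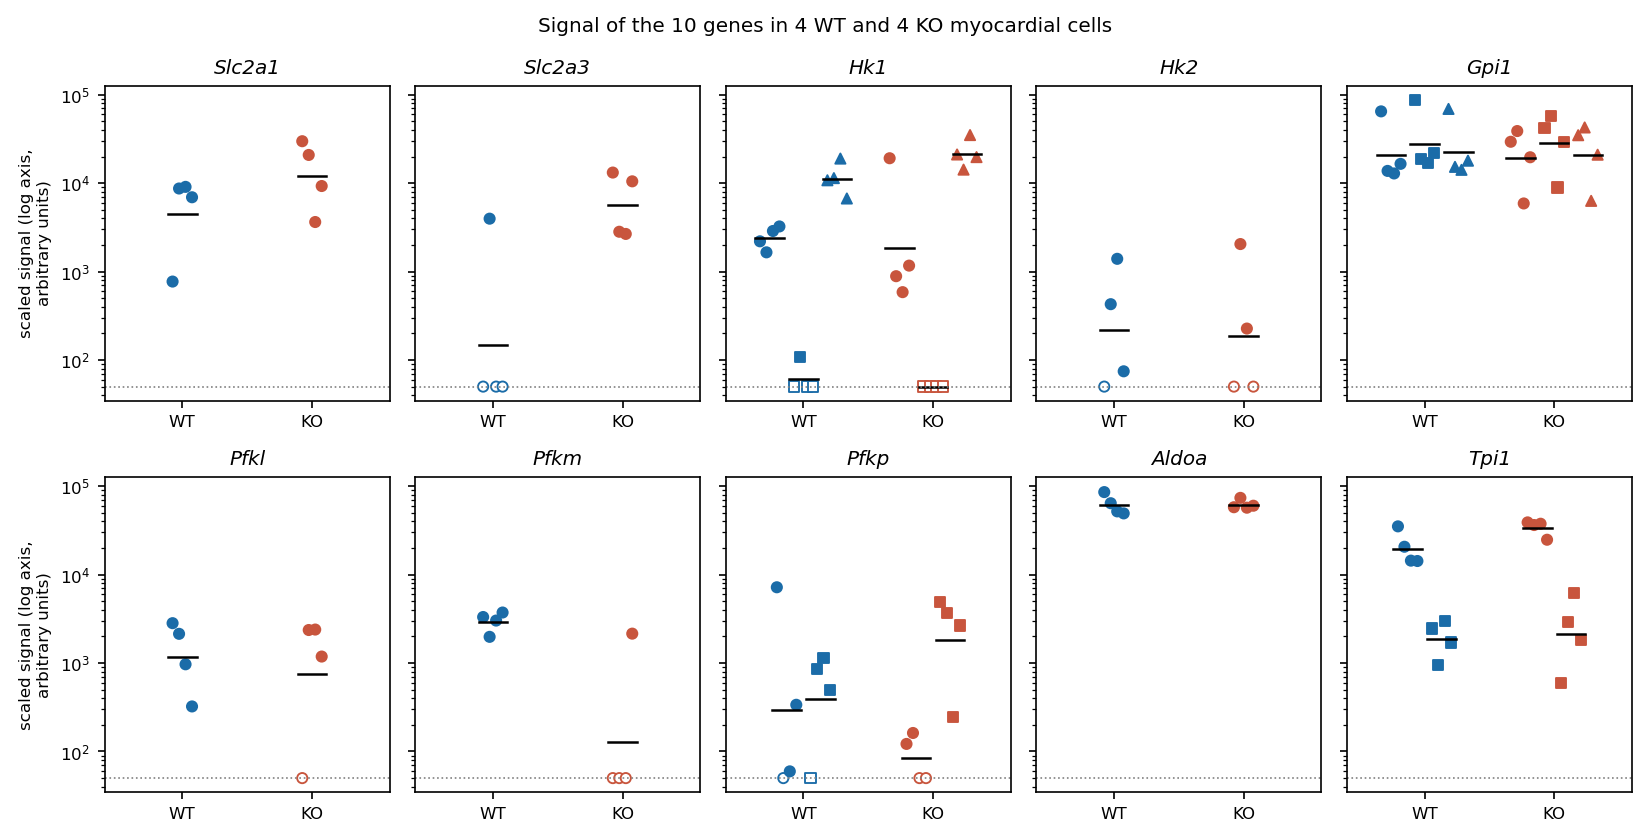
Scaled signal (log axis, arbitrary units) of each gene in 4 WT cells (blue) and 4 KO cells (red). Circles, squares and triangles are different probes of a gene, open symbols lie at the floor of 50 (dotted line), and bars are means of log2 signal over 4 cells. Slc2a3 is above the floor in 1 WT cell and all 4 KO cells, Pfkm in all 4 WT cells and 1 KO cell, and Aldoa stays within 49314 to 85891 in all 8 cells.

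Between genotypes a transporter and a phosphofructokinase subunit differed most, in opposite directions. By their brightest probes Slc2a3, Hk1, Pfkm, Pfkp and Tpi1 differed by more than the SD between cells of both genotypes. The share of all genes that did so was not computed, so this has no background to be set against. For Hk1 the brightest probe is the one placed on chromosome 5, away from the gene, and for Pfkp it is the unplaced one. The other probes of Hk1 (-0.39 and -0.28), Pfkp (-1.80) and Tpi1 (0.18) did not pass both SDs. By a rule of size, a difference of at least 5-fold between mean log2 signals (2.32) among probes well above background in all 4 cells of a genotype, 1 probe was higher in KO cells (Slc2a3) and 1 was lower (Pfkm). Of the 16 probes 14 met the detection part of this rule, and those of Hk2 and the chromosome 13 probe of Pfkp did not. Over all 7460 probes on the array that met it, 1.74% were at least 5-fold higher and 6.89% at least 5-fold lower, 8.63% in all. Of the 16 probes 9 were well above background in all 8 cells, which held for 21.7% of the 24404 probes detected in at least 1 cell. The signals of 0 of the 14 probes separated all KO from all WT cells. All 4 KO cells lay above all 4 WT cells for 3.26% of the 7460 probes, and below them for 2.25%.

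Slc2a1 encodes the transporter for basal glucose uptake, and it was read in all 8 cells. Signals are in scaled units and follow the order of cells 1 to 4 of each genotype. Its probe (chr4:118809864-118809923) gave signals of 771, 8702, 9079.6 and 6927 in the WT cells, and of 29817, 20849.6, 3635 and 9282 in the KO cells. The lowest value was WT cell 1 and the 3 highest were KO cells, but KO cell 3 lay below 3 of the WT cells. Mean log2 signals were 12.15 ± 1.71 (WT) and 13.55 ± 1.35 (KO; SD over n = 4 cells each), a difference of 1.41 that is under the SD of the WT cells. Without WT cell 1 the difference was 0.56.

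Slc2a3 encodes a transporter with high affinity for glucose, known from neurons and from embryonic tissue. Its signal was at the floor in WT cells 1, 3 and 4 and 3966 in WT cell 2. In KO cells 1 to 4 it read 13180.5, 2821, 2665.5 and 10489. The KO cells all carried the transcript, and WT cell 2 lay above KO cells 2 and 3, so the genotypes overlapped through this cell. The mean log2 signal was 7.22 ± 3.15 (WT) and 12.47 ± 1.22 (KO; SD over n = 4 cells each), a difference of 5.25 whose size is set in part by the floor. The difference was 6.83 without WT cell 2, the highest value with any cell left out, and 4.72 was the lowest.
Detection of Slc2a3 in all KO cells and in 1 WT cell was an uncommon pattern on these arrays. Of 5881 probes detected in all 4 KO cells, 0.799% were detected in at most 1 WT cell. In KO cells both transporters were above the floor in every cell, and in WT cells this held for WT cell 2 alone.

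Hexokinase phosphorylates glucose, and Hk1 is its widely expressed form. The Hk1 probe at chr10:61731856-61731915 was above the floor in all 8 cells, at 2199, 1650.4, 2877 and 3239.7 in the WT cells, and at 19139, 887, 585 and 1168 in the KO cells. KO cell 1 was the highest of all cells and the other 3 KO cells were the lowest of all, so that the spread was wider in KO cells (SD 2.29) than in WT cells (SD 0.43). Mean log2 signals differed by -0.39. The difference was -1.51 without KO cell 1, -0.03 without KO cell 2 and 0.17 without KO cell 3, so that its direction rests on single cells.
The other probes under the Hk1 symbol did not repeat this pattern. The chromosome 10 probe that lies 861 genomic bases further from the 3′ end was above the floor in 1 cell, WT cell 2, at 107.7. The probe on chromosome 5 read 10777, 11403, 18965.5 and 6708 in WT cells and 21101, 14222, 34977 and 19704 in KO cells, a difference of 0.93 with SDs of 0.61 and 0.54. KO values tended to the upper side on that probe, with overlap between WT cell 3 and KO cell 2, and KO cell 3 was the highest there while it was the lowest on the first probe.

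Hk2, the hexokinase of insulin-responsive muscle, was above the floor in some cells and at the floor in others in both genotypes. Its signal (chr6:82675056-82675115) was at the floor in WT cell 1 and read 428, 1394 and 74.5 in WT cells 2 to 4. It was at the floor in KO cells 1 and 4 and read 2048 and 227 in KO cells 2 and 3. With 3 WT and 2 KO cells above the floor, the difference of mean log2 signals was -0.23, with SDs of 2.24 and 2.53. Hk1 by its brighter chromosome 10 probe was above the floor in the 3 cells with Hk2 at the floor.

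Gpi1, which links the hexokinase and phosphofructokinase steps, was bright in all 8 cells. Its brightest probe (chr7:34987178-34987237) read 86509, 18683, 16939.5 and 21901 in the WT cells, and 42058, 57322, 8945 and 29473 in the KO cells. WT cell 1 was the highest cell and KO cell 3 the lowest, and the KO cells lay on both sides of the other WT cells. The difference of mean log2 signals was 0.02, with SDs of 1.10 and 1.17. The near-identical probes differed by -0.11 and -0.13, and the sign of the brightest probe turned to negative under each other scaling tried, down to -0.33.

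Phosphofructokinase is the main control point of glycolysis, and of its 3 subunit genes Pfkm had by far the widest gap between genotypes. Pfkm, the muscle subunit, read 3318.5, 1980.0, 3026 and 3731 in WT cells 1 to 4, a narrow band with an SD of 0.40 on the log2 scale. In KO cells 1, 2 and 3 it was at the floor, and in KO cell 4 it read 2152, above WT cell 2. Mean log2 signals were 11.52 ± 0.40 (WT) and 7.0 ± 2.71 (KO; SD over n = 4 cells each), a difference of -4.52 that is set in part by the floor. It was -5.88 without KO cell 4 and -4.07 with another cell left out at the other extreme.
The 10 spots of this probe on each array show the error of the printing and scanning alone. Their coefficient of variation was 2.34% to 4.75% in the 5 cells with signal, while 10, 10, 10 and 10 spots were well above background in the WT cells and 8, 0, 0 and 10 in KO cells 1 to 4. In KO cell 1 the 8 spots above background had little signal, with all 10 spots between 10.4 and 16.6 before scaling, under the floor. The gap between KO cell 4 and the other KO cells was therefore far wider than the spread between spots. For scale, 10.4% of the 6883 probes detected in all 4 WT cells were detected in at most 2 KO cells, as Pfkm was. A pattern within this limit was therefore common on these arrays. The limit is looser than the 1 cell used for Slc2a3, so the 2 shares cannot be compared. KO cells also had fewer probes well above background, with a mean of 19.7% against 22.8% in WT cells.

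Pfkl, the liver subunit, was above the floor in 7 cells. Its signal (chr10:77450926-77450985) was 2827, 2142, 969 and 323 in the WT cells. KO cell 1 was at the floor, and the other KO cells read 2365, 2394 and 1185. Apart from KO cell 1 the KO cells lay inside the WT range. The difference of mean log2 signals was -0.62, with SDs of 1.402 and 2.66, and it was 0.68 without KO cell 1.

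Pfkp, the platelet subunit, gave opposite answers by its 2 probes. The unplaced probe read 861, 1139.5 and 493 in WT cells 2 to 4, with WT cell 1 at the floor, and 4885, 3659, 245 and 2655 in KO cells 1 to 4. Its difference was 2.23, just under the 5-fold rule, with SDs of 2.05 and 1.98, and leaving out single cells gave 1.23 to 3.20. The chromosome 13 probe read 7201 in WT cell 1, the cell in which the other probe was at the floor, and 59.6 and 337.5 in WT cells 3 and 4, with WT cell 2 at the floor. It read 122 and 162 in KO cells 1 and 2 and was at the floor in KO cells 3 and 4, a difference of -1.80 with SDs of 3.32 and 0.88. Without WT cell 1 this difference was -0.26. A direction for Pfkp between genotypes cannot be given from these probes.
Counted by cell, all 3 subunit genes were above the floor in each WT cell, taking either Pfkp probe. In KO cells 1 to 4 the count was 1, 2, 2 and 3. Above the floor, KO cell 1 had Pfkp alone, KO cells 2 and 3 had Pfkl and Pfkp, and KO cell 4 had all of them. These counts restate the Pfkm and Pfkl values above, with the Pfkp probes pooled, and are no separate result.

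**Figure D2:**
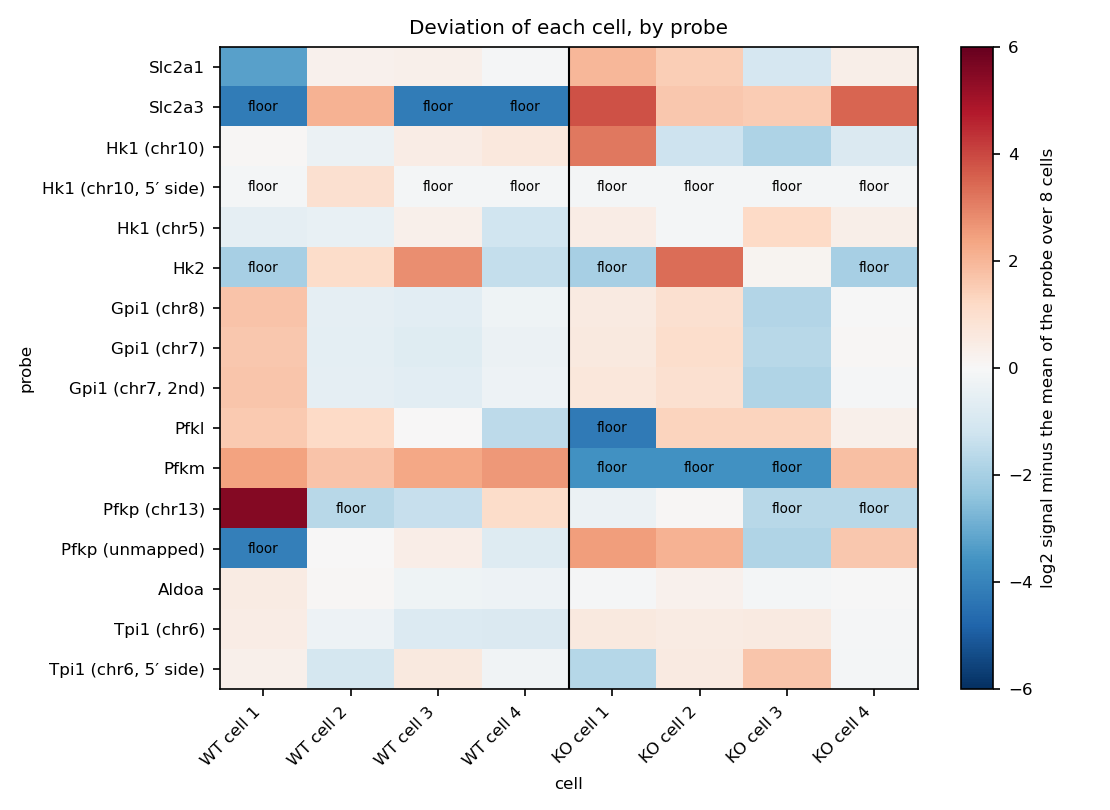
Deviation of each cell (columns, WT left and KO right of the line) from the mean log2 signal of each probe (rows) over the 8 cells, with red above and blue below that mean, and "floor" where the signal is at the floor of 50. Slc2a3 is at the floor in 3 WT cells and Pfkm in 3 KO cells, the 3 Gpi1 rows are alike, and the 2 Pfkp rows oppose each other in WT cell 1.

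Aldoa, the main aldolase of muscle, was the steadiest of these genes. Its signal (chr7:133938816-133938875) read 85891, 64280.5, 51971 and 49314 in the WT cells, and 57914, 73888, 57206 and 60227 in the KO cells, so that the highest cell was 1.74 times the lowest. All 4 KO values lay inside the WT range. Of the 5300 probes well above background in all 8 cells 0.472% had a smaller range, and of the 530 brightest of these 0.189% had. The difference of mean log2 signals was 0.01, with SDs of 0.36 and 0.17, and it was -0.34 when arrays were scaled over all probes, so that it has no settled sign.

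Tpi1 was also read in all cells by both of its probes. The probe nearer the 3′ end (chr6:124760947-124761006) read 35182, 20689, 14406 and 14267 in the WT cells, and 39018, 36424, 37669 and 24831 in the KO cells. KO cells 1 to 3 lay above every WT cell, and WT cell 1 lay above KO cell 4. Mean log2 signals were 14.26 ± 0.61 (WT) and 15.05 ± 0.30 (KO; SD over n = 4 cells each), a difference of 0.79 that is larger than both SDs. It stayed between 0.63 and 1.07 with a cell left out and between 0.44 and 0.79 under 5 scalings. The median difference over the 5300 probes was 0.15 in the main scaling. It ran from 0.00 with scaling over all probes, where this Tpi1 probe differed by 0.44, to 0.32 with quantile normalization, where the probe differed by 0.50.
The other Tpi1 probe, 976 genomic bases further from the 3′ end (chr6:124761923-124761982), did not show this separation. It read 2461, 954, 3009.8 and 1704 in WT cells and 598.5, 2898, 6242 and 1843 in KO cells, with the lowest and the highest cell both KO. Its difference was 0.18, with SDs of 0.73 and 1.41, and its sign turned when arrays were scaled over all probes (-0.17). The cDNA was primed from the poly(A) tail before amplification, and the part of this priming in the gap between probes was not tested. Distances along the transcript are not given, since exon annotation was not used.

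**Figure D3:**
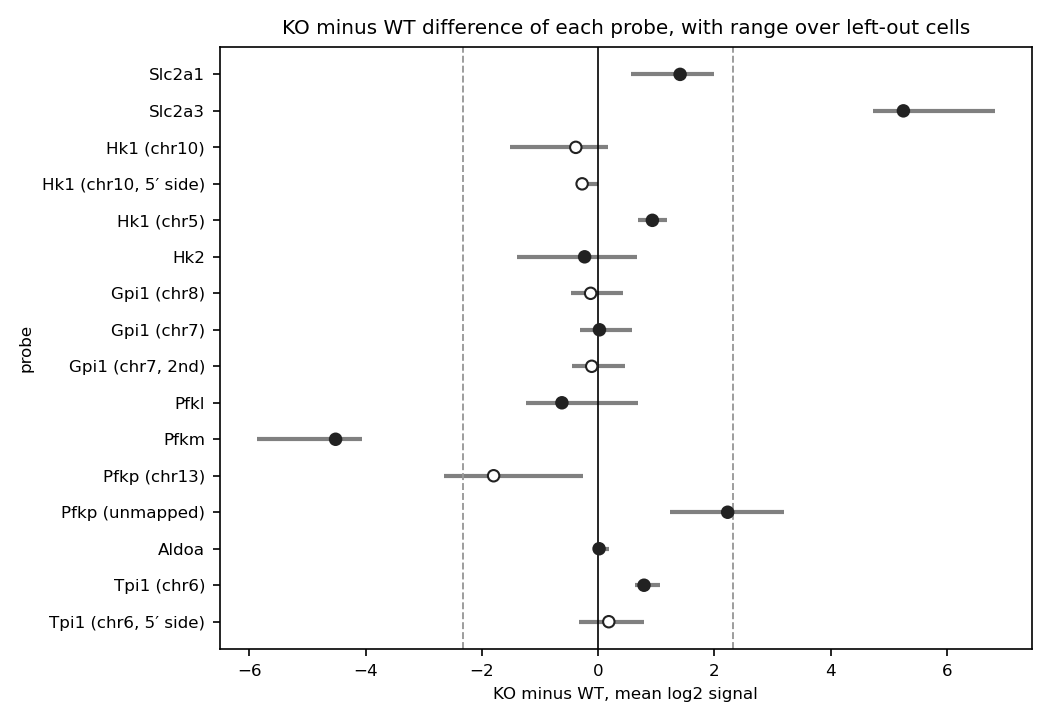
KO minus WT difference of mean log2 signal for each of the 16 probes (points), with the range of values when each cell is left out in turn (grey bars). Filled points are the brightest probe of a gene, dashed lines mark 5-fold, and only Slc2a3 (5.25) and Pfkm (-4.52) lie past them.

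Taken by cell, the set was nearly complete in each. Of the 10 genes, WT cells held 8, 10, 9 and 9 with a probe well above background, and KO cells held 8, 9, 9 and 9. Counted above the floor, KO cell 1 held 7 and the other counts were the same. By that count Slc2a3 was lacking in 3 WT cells, Pfkm in KO cells 1, 2 and 3, Hk2 in WT cell 1 and KO cells 1 and 4, and Pfkl in KO cell 1. A score was computed as the mean over the 10 genes of the log2 signal of the brightest probe minus its mean over the 8 cells. It was -0.75, 0.50, 0.01 and -0.82 in the WT cells, and 0.01, 0.79, -0.34 and 0.59 in the KO cells, so that the genotypes overlapped. The means were -0.26 ± 0.64 and 0.26 ± 0.52 (SD between cells, n = 4 each). Their difference, 0.53, was smaller than the WT SD. This score difference is the mean of the differences of the 10 genes. Slc2a3 (5.25) and Pfkm (-4.52) weigh most in it, in opposite directions. The differences of the genes other than Slc2a3 nearly cancel, so the score difference rests on Slc2a3.

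By brightest probe, 7 genes were higher and 3 lower in KO cells, with a median difference of 0.40. This split was 5 and 5 when arrays were scaled over all probes, at the 75th percentile or after normexp background correction, with Gpi1 and Aldoa on the lower side, and 7 and 3 after quantile normalization. Over the 4941 named genes detected in at least 4 cells, 43.2% were higher and 47.4% lower, the rest being at the floor in all cells, and the median was 0.00. The median of the 10 genes was 0.02 when the Hk1 probe on chromosome 5 and the Gpi1 probe on chromosome 8 were not used. Only the Hk1 probe mattered here, since the Gpi1 probe did not stand for its gene. Hk1 then passed from 0.93 to -0.39, on the lower side. The median was 0.05 when all probes of a gene were averaged.

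The neighbours of these genes in the pathway were read from lists by the same measures. Of 14 paralogs on the array, among them Slc2a4 and Aldoc, 7 were above the floor in 0 cells and 7 in 1 to 3 cells. Only Hk3 was detected in at least 4 cells, 2 of each genotype, with a difference of -0.21 close to the floor. The insulin-responsive transporter Slc2a4 was above the floor in WT cell 3 alone, at 159.

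Lower glycolysis, from glyceraldehyde phosphate to lactate, was measured for 12 of 15 genes. Of these 8 were higher and 4 lower in KO cells, with 0 at least 5-fold either way, where 2.79% of the 4941 genes were at least 5-fold higher and 10.7% lower. The median difference was 0.20. The brightest were Gapdh, Eno1 and Ldha, with differences of 0.08, -0.28 and 0.24, each smaller than the SD of the WT cells (0.53, 0.53 and 0.47). Among the 12 genes only the pyruvate kinase gene Pkm and the phosphoglycerate mutase gene Pgam1 differed by more than the SD of both genotypes. Pkm differed by 0.68 (SDs of 0.40 and 0.45) and Pgam1 by 0.57 (SDs of 0.28 and 0.36). The share of all genes past both SDs was not computed, and these genes were named after their values were seen.

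The hypoxia response shares Slc2a1, Slc2a3 and several glycolytic genes with glycolysis, and its other genes were read as a separate list. Of 23 genes 9 were measured, 6 higher and 3 lower in KO cells, with a median difference of 0.24. With single cells left out this median ran from 0.03 (without WT cell 4) to 0.58 (without WT cell 3). Hilpda, a lipid droplet gene of this response, was at least 5-fold higher. It was at the floor in WT cells 1, 2 and 4, read 55.1 in WT cell 3, and read 6502, 800.0, 3036 and 651 in KO cells 1 to 4. All KO cells lay above all WT cells, which held for 3.26% of the 7460 probes counted above. The difference of 5.13 is set in part by the floor. Bnip3l, a mitophagy gene, was the other gene at least 5-fold higher, at 3.09, with SDs of 2.73 (WT) and 3.32 (KO). It was above the floor in WT cell 1 and KO cells 1, 3 and 4. Over the 4941 named genes detected in at least 4 cells, 2.79% were at least 5-fold higher. Epas1 and Bnip3 were above the floor in all 8 cells and differed by 0.04 and 1.03. Hif1a itself differed by -1.63, a size set in part by the floor, where WT cell 1 and KO cells 1, 3 and 4 lay. Of the 9 genes measured, 2 differed by more than the SD of both genotypes, Hilpda and Hif1a, and the share of all genes that did so was not computed. Lists and genes were chosen with earlier results of these arrays known, so these counts are no independent evidence of a direction.

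**Figure D4:**
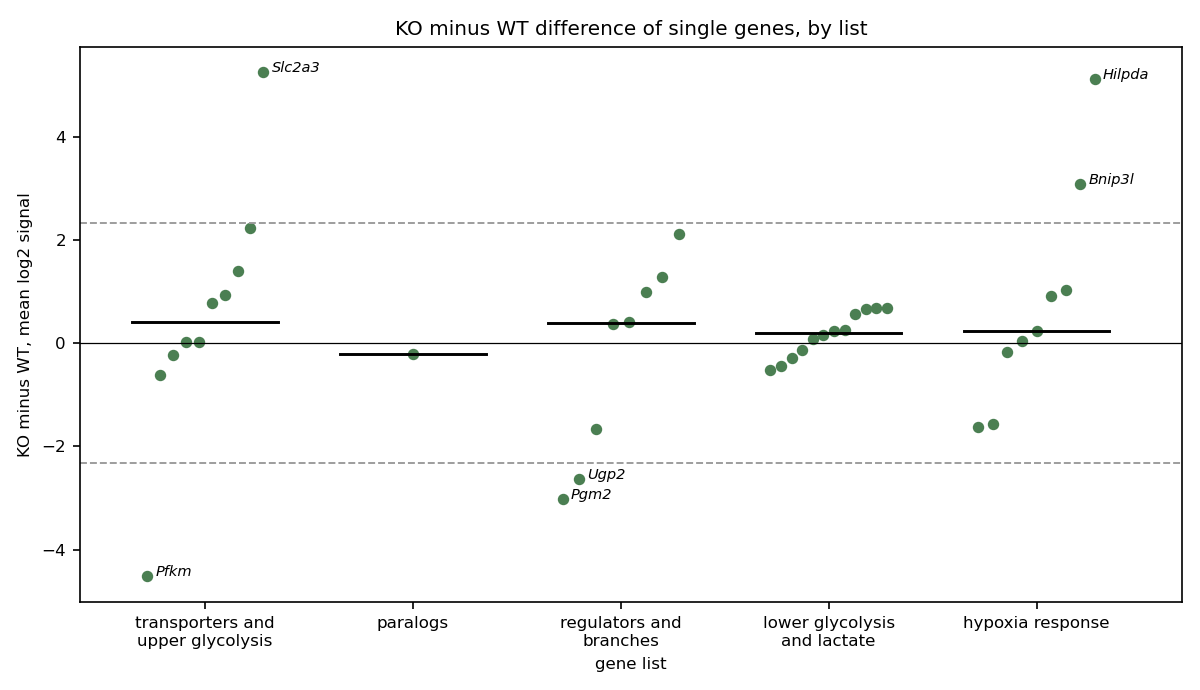
KO minus WT difference of mean log2 signal of single genes in 5 lists (points, sorted within a list), with the median of each list (bars) and dashed lines at 5-fold. Slc2a3, Hilpda and Bnip3l lie above the upper line and Pfkm, Pgm2 and Ugp2 below the lower, while all 12 lower glycolysis genes lie between the lines.

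Slc2a3 had the widest spread over the 8 cells of the 10 genes, and other genes were compared with it by Pearson correlation of log2 signals across the cells. Of 4479 named genes that were detected in at least 4 cells and varied, the 5 with the highest r were Thyn1 (0.960), Prss23 (0.945), Myl9 (0.939), Scgb2b15 (0.9225) and Msl1 (0.845). Each r rests on 8 cells from 2 slides, and since Slc2a3 is either at the floor or far above it, r mainly follows this split. With so many genes and 8 points, high values can arise without any relation, and the list is a description.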

How the data were processed

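Values were the deposited intensity values of 8 arrays, made by the authors with Agilent Feature Extraction 12.0.2.2 per the file headers: the processed signal, already background-subtracted and not normalised between arrays, with the software's flags. The authors state that levels under 50 were set to 50, that chips were scaled on the 50th percentile and genes on their median. Later steps of theirs were not used here. Control spots and outlier spots (146 to 220 per array) were left out, 0 spots were saturated, and log2 signals of repeated spots were averaged. Each array was shifted (by -0.76 to 0.68) to a common 50th percentile over the 5300 probes well above background on all 8 arrays, and then floored at 50. Values at the floor have no order. Whether such a value means that the cell lacked the transcript, or that it was lost in reverse transcription or amplification, was not tested. A repeated probe counted as well above background when over 50% of its spots were. The probe with the highest mean signal stood for its gene. Positions are mm9 as deposited, and exon and UTR annotation was not used here. The chromosome of each gene came from a RefSeq table (GRCm38.p6), and Slc2a12 had no match among the array's symbols.

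The genes, the lists and the rule for genes named in the text (all 10 genes, list genes past 5-fold or else the 3 brightest, and 5 genes most like the gene of widest spread) were chosen with earlier results of these data known. A few list genes outside the rule (Slc2a4, Aldoc, Epas1, Bnip3, Hif1a, Pkm, Pgam1, Gys1, Pygm) were named after their values were seen. Alternatives covered scaling, normexp background correction (limma 3.58.1, offset 50), the floor, the filters, medians and each cell left out. The size rule was also run on simulated cells with no floor applied, so how it performs on genes at the floor in some cells was not tested. The number of arrays limits the precision. Python 3.11.15, numpy 2.4.6, pandas 2.3.3 and R 4.3.3 were used.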

Additional observations from a re-analysis of the deposited data

Results flagged for a closer look

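For each probe of the 10 genes, the score and the number of detected genes, the gap of the highest or lowest cell to the nearest of the other 3 of its genotype was divided by the range of the 4. Of 36 such groups 9 passed Dixon's limit, which chance passes in about 1 in 20 groups, and values at the floor raise the ratio. In WT cells the ratio was 1.0 for Slc2a3 (WT cell 2 high) and for the chromosome 10 Hk1 probe farther from the 3′ end (WT cell 2 high). It was 0.890 for Slc2a1, where WT cell 1 was low. For Gpi1, WT cell 1 was high on all 3 near-identical probes, at 0.843, 0.850 and 0.846, which count as 1 measurement. In KO cells it was 1.0 for Pfkm (KO cell 4 high), 1.0 for the number of genes detected (KO cell 1 low) and 0.848 for the Tpi1 probe nearer the 3′ end (KO cell 4 low). WT cell 1 also had the lowest median correlation with the other cells of its genotype among WT cells, at 0.866 across the 5300 probes, as KO cell 1 had among KO cells, at 0.826.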

How the results depend on the processing

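No paired analysis was possible because no result comes from a test and the replicate numbers name cells without pairing them. The count of 1 lower probe became 0 when detection in all 8 cells was required, which leaves out Pfkm and Slc2a3 by construction, and was 1 to 2 with a cell left out, the chromosome 13 Pfkp probe being added without WT cell 2. The count of 1 higher probe became 0 with that filter, 2 with quantile normalization, 2 with no floor and 3 at 2-fold, and was 1 to 2 with a cell left out, being 2 without WT cell 2, 3 or 4 or KO cell 3. The difference of the single paralog measured, Hk3, moved from -0.21 to -0.93 with no floor. The higher probe added with quantile normalization and with no floor was the unplaced Pfkp probe, at 2.92 and 2.90 against 2.23. For this probe only WT cell 1 lay under the floor, at 7.8, so with no floor that value alone changed. Why the other values moved was not tested. With no floor Slc2a3 differed by 8.83 and Pfkm by -7.09.

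The median of the 10 genes stayed between 0.02 and 0.82 under other settings and between 0.27 and 0.70 with a cell left out, and the score difference between 0.17 and 0.58 and between 0.34 and 0.78, all positive. Slc2a3 stayed in the score under each setting, so the sign of the score difference does not show a rise shared by the 10 genes. The difference in genes detected per cell, -0.25, was 0.0 by positive and significant signal and -0.5 by signal above 50. Without WT cell 2 it was 0.08 and without KO cell 1 it was 0.0. Of 16 probes 10 kept their sign under 5 scalings, and those of Pfkl, Hk2, Aldoa, the brightest Gpi1, the Hk1 probe near the floor and the inner Tpi1 probe did not. The scalings moved the median difference of the 5300 probes from 0.15 to between 0.00 and 0.32. The lower glycolysis median turned to -0.10 under a scaling, and that of regulators and branches to -0.44 without KO cell 3. The hypoxia median was 0.68 with no floor and 0.03 to 0.58 with a cell left out. Signals under the floor were not resolved.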

Other observations

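Genes that branch off at glucose 6-phosphate towards glycogen were mostly read in part of the cells. Of 26 regulators and branch genes 8 were measured, 5 higher and 3 lower in KO cells, with a median difference of 0.39 and a mean of opposite sign, -0.27. The 2 that were at least 5-fold lower were Pgm2, a phosphoglucomutase, and Ugp2, which makes the glucose donor for glycogen. Over the 4941 genes detected in at least 4 cells 10.7% were at least 5-fold lower, and both differences are set in part by the floor. Of the 8 genes measured, only these 2 differed by more than the SD of both genotypes, and the share of all genes that did so was not computed. Pgm2 read 2718, 1924, 5917.5 and 2070.5 in WT cells 1 to 4, was at the floor in KO cell 1, and read 90.1, 749.5 and 4391 in KO cells 2 to 4, a difference of -3.02. Without the last of these cells the genotypes would not overlap, and with it they did. Ugp2 read 61.0, 1715, 2314 and 798 in WT cells, was at the floor in KO cells 1 and 3, and read 374 and 138 in KO cells 2 and 4, a difference of -2.64, with WT cell 1 below KO cells 2 and 4.

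Glycogen synthase Gys1 and muscle glycogen phosphorylase Pygm varied widely within a genotype. Gys1 was at the floor in WT cells 1 and 2 and KO cells 3 and 4 and reached 14851 in KO cell 1. Pygm read from the floor in WT cell 1 to 7042 in KO cell 2. Their differences, 1.28 and 0.37, were smaller than the SDs between KO cells, 4.49 and 3.17.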
